A study of Mus musculus with 4 samples.

Results

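The regions described here are the widest stretches of accessible chromatin found in every library of an ATAC-seq experiment on mouse macrophages. ATAC-seq uses a transposase to place sequencing adapters into open DNA, and a peak is a stretch where such insertions exceed the local background. The 4 deposited peak lists, 1 per library, were merged wherever peaks overlapped by at least 1 bp, which gave 91858 regions on mm10. Of these, 53062 had a peak in all 4 lists, and 1295 of those spanned at least 1500 bp. These 1295 are called very wide regions below, and the other 51767 regions with a peak in all 4 lists are called narrower shared regions. They were chosen by the measured union width and by being called in every list, so their width is a description, not a finding.

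The cells were bone marrow-derived macrophages, grown from marrow for 7 to 10 days in medium containing L929 cell supernatant, a source of macrophage growth factor. Littermates of the knockouts, whose own alleles are not stated further, gave the wild-type (WT) cells. Knockout (KO) cells came from Ezh2fl/fl;LysM-Cre+/- mice, in which Cre expressed from the lysozyme M locus deletes floxed Ezh2 in myeloid cells. Conditioned medium of the mouse hepatoma line Hepa1-6 was present for the last 24 hours in both genotypes, so every group here carries that exposure. Each genotype had 2 libraries, WT 1 and WT 2 and KO 1 and KO 2. Separate mice or cultures are not stated for the replicates, whose spread may therefore be technical. The sources used here give no age for the mice.

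Ezh2 is the catalytic subunit of Polycomb repressive complex 2 (PRC2), which methylates histone H3 and keeps developmental genes silent. Most accessible regions of a cell are single promoters or enhancers a few nucleosomes long. Much wider open stretches are known from promoters in CpG islands, from head-to-head gene pairs and from clusters of enhancers near genes that define a cell type. CpG islands are stretches rich in the dinucleotide CG that usually lack DNA methylation and tend to be accessible across many cell types.

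The facts of the whole series that bear on these regions are few. The lists held between 67055 and 72887 peaks and covered between 26.7 and 29.9 Mb. The files hold no read counts, so the depth of each library is unknown. The macrophage label was checked against the gene lists. Of 20 macrophage identity genes, 18 had a region called in all 4 libraries within 1 kb of a gene end, as did 11953 of all 21887 protein-coding genes. The same held for 6 of 10 dendritic cell markers, 5 of 12 neutrophil markers, 2 of 10 B cell markers, 3 of 14 T and NK cell markers and 1 of 10 mast cell, basophil and eosinophil markers. It held for 2 of 7 osteoclast, 3 of 9 fibroblast, 2 of 10 hepatocyte and 3 of 8 erythroid markers. The knocked-out locus had a promoter region of 1455 bp, just under the width limit. Peaks covered 1378 and 1408 bp of it in WT and 1350 and 1351 bp in KO, so the labelled deletion could not be read from this region. The labels do not state which exons are floxed. A region inside Ezh2, 403 bp wide at chr6:47532495-47532897, was covered over 403 and 372 bp in WT and over 106 and 182 bp in KO. Another inside the gene, 388 bp wide at chr6:47562290-47562677, was covered over 152 and 382 bp in WT and 273 and 267 bp in KO, and the genotypes overlapped there.

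Promoter sequence shows what kind of DNA lies under the widest regions. The 150 bases before the annotated start are printed 5′ to 3′ on the gene's strand, from the RefSeq promoter table of GRCm38.p6, for 6 coding genes with a start in a very wide region. They come from the 20 widest regions and from the gene lists described below, widest first, so starts in regions of similar width at genes outside those groups are not shown. LOC108167694 (2930 bp, with 21 CG dinucleotides in its 150 bases) and Pfn1 (2585 bp, with 8) also met this rule and are not printed. The printed stretches show a CpG-poor start (Arhgdib), CpG-rich starts (Cdk6 and Hnrnpa2b1) and both starts of a divergent pair (Ddit3 and Mbd6). Capitals mark a match to 1 of the 14 motifs searched. The stretches lie at chr6:136941900-136942049, minus strand (Arhgdib), chr5:3343743-3343892, plus strand (Cdk6), chr10:127290643-127290792, plus strand (Ddit3), chr10:127289019-127289168, minus strand (Mbd6), chr8:128358923-128359072, plus strand (Nrp1) and chr6:51469895-51470044, minus strand (Hnrnpa2b1).
Arhgdib: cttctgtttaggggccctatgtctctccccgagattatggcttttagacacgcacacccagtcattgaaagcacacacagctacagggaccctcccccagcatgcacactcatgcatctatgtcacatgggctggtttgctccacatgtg
Cdk6: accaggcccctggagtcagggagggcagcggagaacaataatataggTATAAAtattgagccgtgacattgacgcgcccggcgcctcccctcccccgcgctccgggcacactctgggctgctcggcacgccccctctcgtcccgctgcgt
Ddit3: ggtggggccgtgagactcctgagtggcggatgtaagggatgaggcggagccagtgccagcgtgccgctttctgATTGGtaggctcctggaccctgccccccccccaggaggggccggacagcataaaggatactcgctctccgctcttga
Mbd6: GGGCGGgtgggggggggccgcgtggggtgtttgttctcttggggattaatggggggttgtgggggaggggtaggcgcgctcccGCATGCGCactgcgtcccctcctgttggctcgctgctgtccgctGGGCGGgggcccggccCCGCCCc
Nrp1: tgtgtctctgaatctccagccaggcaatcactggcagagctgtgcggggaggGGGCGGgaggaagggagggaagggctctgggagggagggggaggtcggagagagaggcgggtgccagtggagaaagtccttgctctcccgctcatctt
Hnrnpa2b1: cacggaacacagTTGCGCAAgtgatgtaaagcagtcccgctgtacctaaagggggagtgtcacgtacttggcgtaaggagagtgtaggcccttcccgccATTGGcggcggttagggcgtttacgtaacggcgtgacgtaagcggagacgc

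The Arhgdib region ended just upstream of the start, so most of the printed stretch lies outside it. That stretch held 2 CG dinucleotides and no motif match, whereas the Hnrnpa2b1 stretch held 15, the Cdk6 stretch 14 and the Mbd6 stretch 13. Ddit3 and Nrp1 lay between, with 8 and 5. Cdk6 carried a TATA box (TATAAA) at 103 bases before the start. Mbd6 carried 3 GC boxes (GGGCGG on either strand) and 1 NRF1 motif (GCGCATGC on either strand). The CCAAT box, read as its reverse complement ATTGG, lay 77 bases before the Ddit3 start and 51 bases before that of Hnrnpa2b1, which also held a C/EBP core (TTGCNNAA). A match shows only that these letters are present in the window.

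The 1295 regions made up 2.44% of the regions called in all 4 libraries and 7.23% of their summed width, or 2.31 of 31.9 Mb. Their median width was 1683 bp, against 513 bp over all shared regions. Most lay near the limit, with 800 under 1750 bp, 215 of at least 2000 bp, 42 of at least 2500 bp and 14 of at least 3000 bp. Just inside the limit lay regions at Tmem164 (1500 bp), Stat3 (1501 bp) and Insig1 (1501 bp). Just outside it lay regions nearest Degs1, Zc3h10 and Slc2a8, each of 1499 bp. The distribution of widths fell steadily through the limit, so the limit marks a tail and not a separate class.

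Gene ends were the main location. A protein-coding gene end lay within 1 kb of 797 very wide regions (61.5%, 95% exact Clopper-Pearson interval 58.8 to 64.2%), against 21.3% of the narrower shared regions (21.0 to 21.7%) and 15.7% of all merged regions. These intervals cover counting error only. A wide region reaches further, so the share was also taken from the midpoint alone, an alternative chosen after the data were seen. The midpoint lay within 1 kb of a gene end in 55.8% of the very wide regions and in 19.9% of the narrower ones. The share rose with width below the limit as well, from 7.10% of regions under 200 bp to 45.0% at 800 to 1000 bp and 58.0% at 1250 to 1500 bp. Above the limit it stayed near that level, at 63.5%, 59.6% and 60.7% in successive width classes up to 2500 bp. It was 40.5% (25.6 to 56.7%) in the 42 regions of 2500 bp or more.

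**Figure D1:**
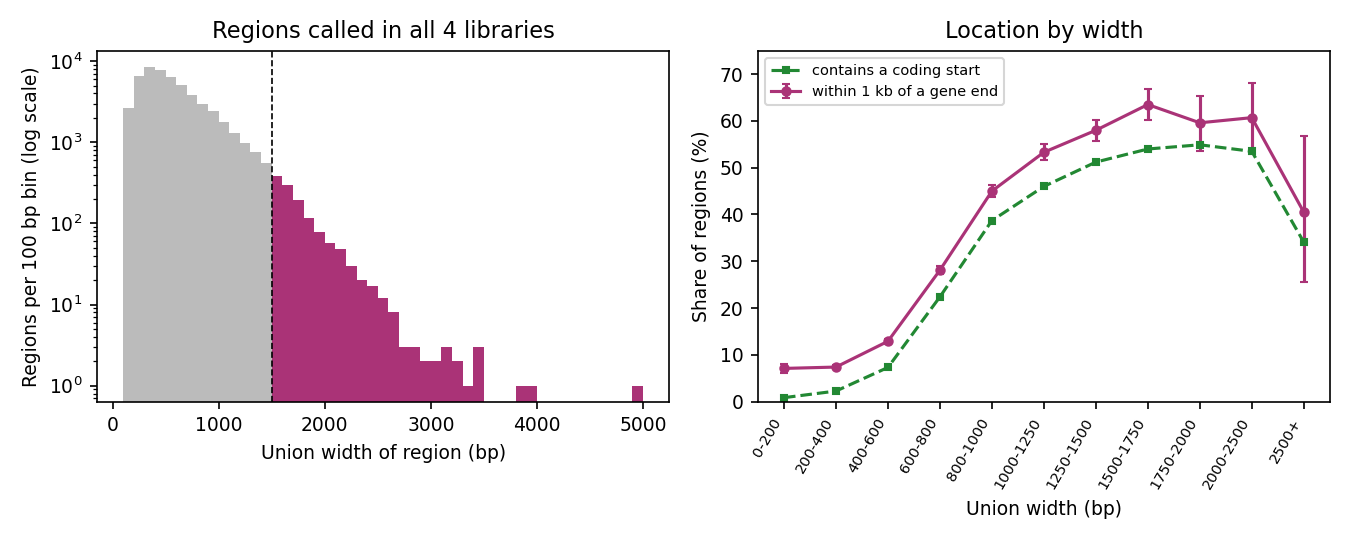
Left, number of regions called in all 4 libraries per 100 bp of union width on a log axis, with the 1295 regions of at least 1500 bp in purple; the counts fall smoothly through the dashed limit. Right, share of regions within 1 kb of a gene end (circles, with 95% exact intervals) and share containing a coding start (squares), by width class; the first rises from 7.10% to 63.5% and is 40.5% in the widest class.

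Coding starts lay inside the very wide regions more often than annotated 3′ ends. A coding start can lie away from the annotated gene ends. The region that held the Zbtb11 start, for example, lay 1965 bp from the nearest end. Regions with a coding start are thus not a subset of the 797 gene-end regions. The promoter table gives strands and start sites on every chromosome used here except chromosome 18, which leaves 1258 of the 1295 regions. It holds 17492 of the 21887 coding genes (79.9%), and genes such as Maf and Tyrobp on the other chromosomes also lack an entry. Starts and 3′ ends of genes without an entry are not counted below, so a region scored without a coding start may hold one. A coding start lay inside 673 of them (53.5%), against 15.6% of the narrower shared regions. A start of a long non-coding RNA (lncRNA) lay inside 9.54%, against 2.62%. The annotated 3′ end of a coding gene with a known start lay inside 20 regions (1.59%), against 0.512%, and 11 of those 20 held no coding start. Away from gene ends, 265 very wide regions (20.5%) lay inside a gene over 1 kb from any end, 166 (12.8%) lay outside genes at up to 50 kb, and 113 (8.73%) lay more than 50 kb from any gene end. The last group includes 46 regions inside a gene that are also counted among the 265. The matching shares of the narrower regions were 42.7%, 26.1% and 18.6%, with 8.83% counted in both the first and the last.

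The span around the start was not symmetrical. In the 585 very wide regions that held exactly 1 coding start with its strand, the region reached a median of 645 bp upstream and 1059 bp downstream of the start. It reached further downstream than upstream in 396 of the 585 (67.7%). In the 7079 narrower shared regions with 1 coding start the medians were 351 bp and 432 bp, and 57.9% reached further downstream. The part downstream of the start thus made up a larger share of the very wide regions.

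**Figure D2:**
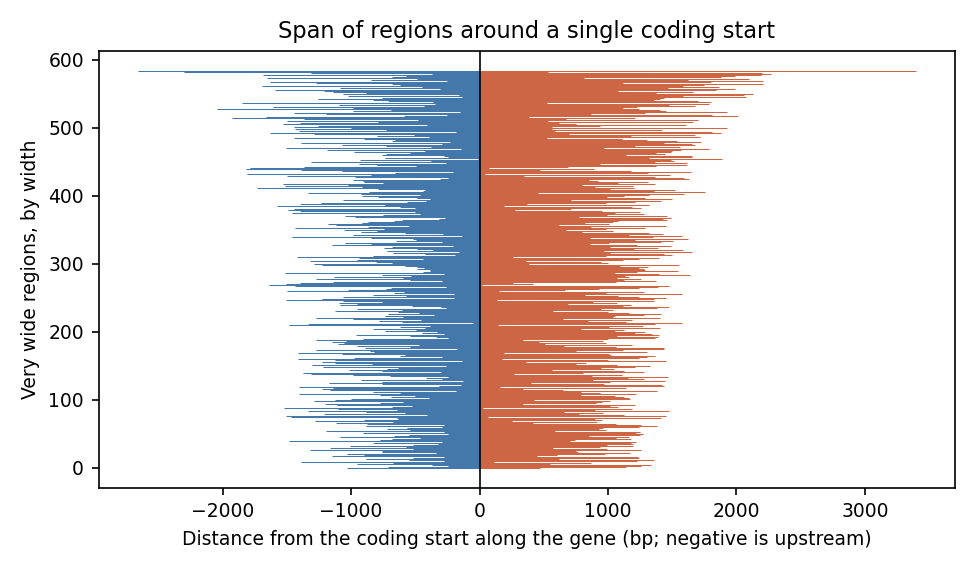
Each horizontal line is 1 of the 585 very wide regions with a single coding start, ordered by width from bottom to top; blue is the part upstream of the start and orange the part downstream, in bp. The orange side is the longer one in 396 of the 585 regions.

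Head-to-head gene pairs, in which neighbouring genes start back to back on opposite strands, were one kind of locus with a very wide region. Coding starts on both strands lay inside 80 regions (6.36%), against 1.31% of the narrower shared regions. A wider region has more room for several starts and for starts further apart, and neither comparison corrects for width. Among regions with a coding start, 80 of 673 very wide and 660 of 7839 narrower ones had starts on both strands. In 72 of the 80 the starts pointed away from each other, with a median gap of 253 bp, against 137 bp over 594 such narrower regions. The widest was the pair of Mbd6, a methyl-CpG-binding-domain protein, and Ddit3, which encodes the stress-induced factor CHOP. Their starts, whose sequences are printed above, lay 1775 bp apart in a region of 2869 bp at chr10:127288395-127291263. A single peak covered it in each library, over 2848 and 2838 bp in WT and 2841 and 2806 bp in KO. The 4 values lay within 50 bp of each other.

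Pairs of an RNA-binding hnRNP gene with a chromobox gene appeared at both paralogous loci. Hnrnpa2b1 and Cbx3, a pair known as a ubiquitously accessible promoter region, had starts 722 bp apart in a region of 2545 bp. Peaks covered 1327 and 1747 bp of it in WT and 1346 and 2539 bp in KO. Hnrnpa1 and Cbx5 had starts 545 bp apart in a region of 1613 bp, covered over 1613 and 1610 bp in WT and 1611 and 1609 bp in KO. The first region varied by more than 1000 bp between the KO libraries and the second hardly at all. Another hnRNP gene, Hnrnpk, shared its region of 1737 bp with Rmi1, whose product acts in DNA repair, with starts 131 bp apart. Other pairs were Ncor1, a nuclear receptor corepressor, with Pigl, and Atp6v1a, a subunit of the lysosomal proton pump, with Naa50. Elf1, an ETS factor of blood cells, and Wbp4 also started on opposite strands inside the same region. Their starts did not point away from each other.

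Promoters at very wide regions were rich in CG, as were promoters at other open starts. Taking 1 promoter of 300 bases per coding gene, the 753 promoters whose start lay in a very wide region had a median GC content of 65% and a median observed over expected CpG ratio of 0.827. The ratio exceeded 0.6, a usual limit for CpG islands, in 81.1% of them. The 8277 promoters in narrower shared regions had medians of 61% and 0.789, with 78.0% over 0.6. Those in shared regions of 1000 to under 1500 bp had 63.7% and 0.825, with 82.8% over 0.6. The 8462 promoters with no shared region at the start had 49.7% and 0.238, with 17.8% over 0.6. CpG content thus set open starts apart from the rest, and differed little between very wide regions and those just under the limit.

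**Figure D3:**
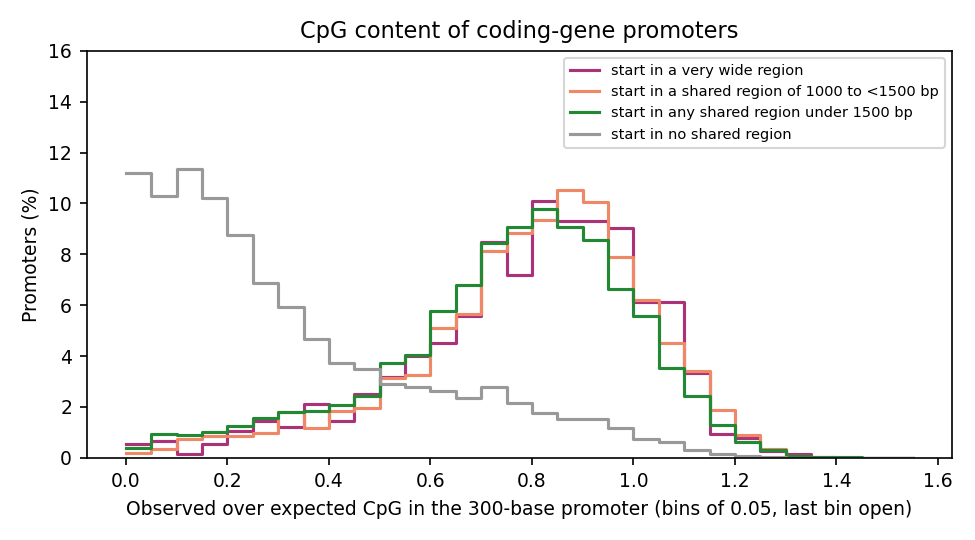
Distribution of the observed over expected CpG ratio in the 300-base promoter (x axis, bins of 0.05) as the share of promoters (y axis), for starts in a very wide region, in shared regions of 1000 to under 1500 bp, in any shared region under 1500 bp and in no shared region. The first 3 curves lie together, with medians of 0.827, 0.825 and 0.789, and the last has a median of 0.238.

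Motif shares did not all follow this division. The GC box (GGGCGG), bound by SP and KLF factors, was present in 72.8% of promoters at very wide regions, 67.5% at narrower shared regions and 46.8% of all 17492 promoters. The ETS core CGGAAG was present in 29.0%, 35.7% and 21.7% of the same groups. The TATA box was present in 4.91%, 6.31% and 13.2%, and the AP-1 site TGANTCA in 3.98%, 4.63% and 7.05%. The PU.1-like site GAGGAAGT, named for a macrophage master regulator, was present in 2.39%, 3.64% and 3.20%, and the E-box CACGTG in 11.2%, 10.7% and 7.96%. The CCAAT box was less frequent at very wide regions, in 35.3%, than at narrower shared regions (40.4%), at starts with no shared region (38.3%) and over all promoters (39.2%). Starts in shared regions of 1000 to under 1500 bp had the GC box in 72.2%, close to the very wide regions. There the ETS core was present in 34.1%, the TATA box in 5.78% and the AP-1 site in 3.37%. The PU.1-like site was present in 3.29% of them, the E-box in 10.9% and the CCAAT box in 38.2%. Motifs were read on both strands of the 300 bases, and matches of different motifs could overlap.

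Genes were next read from lists of known roles. Of 21887 protein-coding genes, 949 (4.34%) had a very wide region within 1 kb of an end. Of the 585 list genes, 66 did (11.3%). A shared region of any width lay at an end of 414 of the 585, and of 11953 of all 21887. Among genes with such a region, the very wide share was 15.9% for the lists and 7.94% over all genes. The region held the gene's own start at 43 of the 66, held its 3′ end at 4 and lay within 1 kb at 3, and at 16 no strand was used.

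Genes of translation and RNA processing gave the largest share of any list, 8 of 23 (34.8%). Eef1a1, the elongation factor that brings aminoacyl-tRNA to the ribosome, had a region of 1815 bp, covered over 1739 and 1764 bp in WT and 1775 and 1808 bp in KO. Eif5 and Eif4g2, both factors of translation initiation, had regions of 1601 and 1632 bp. The splicing factors Srsf6 and Srsf7 had regions of 1640 and 1506 bp, and the other 3 were the hnRNP genes above. Ribosomal protein genes, which are also expressed in all cells, gave 2 of 27, Rpl7 with 1776 bp and Rpl10 with 1595 bp. Of 17 heat shock and stress genes, 4 had such a region, and they included the chaperones Hspa8 (1506 bp) and Hsp90ab1 (2174 bp). Nfe2l2, which encodes the antioxidant regulator NRF2, had 1907 bp, with 1898 and 1861 bp covered in WT and 1901 bp in each KO library.

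AP-1 and immediate early genes, which respond within minutes to stimuli, gave 7 of 30. Jun, the AP-1 subunit, had the widest of them at 2021 bp (chr4:95051602-95053622), which also held the start of the antisense lncRNA Junos. Peaks covered 1793 and 1891 bp in WT and 1985 and 1827 bp in KO, so the genotypes overlapped. Ier5, an immediate early regulator, had 1947 bp with 698 and 582 bp covered in WT and 840 and 1803 bp in KO, so 1 KO library carried most of that width. Atf3, a stress-induced repressor of inflammatory genes, had 1562 bp with 1473 and 1511 bp in WT and 1175 and 1207 bp in KO. Both WT values lay above both KO values there. The others were Fosl2 (1546 bp), another AP-1 subunit, Egr1 (1628 bp), a zinc finger factor, Dusp1 (1663 bp), a phosphatase that turns off MAP kinases, and Zfp36l2 (1710 bp), which promotes mRNA decay.

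Lineage and macrophage transcription factors gave 6 of 32. Maf, which maintains resident macrophage identity, had 1505 bp and Etv6, an ETS repressor, had 1662 bp. Bach1, a haem-regulated repressor, had 1615 bp with 1039 and 1022 bp covered in WT and 1487 and 1614 bp in KO. The KO values were both above the WT values. The region counted for Nr1h3, the sterol-sensing receptor LXR alpha, held the 3′ end of that gene and the start of its neighbour Madd. It measured 2165 bp, with 2129 and 2015 bp covered in WT and 1521 and 1310 bp in KO, so the order was reversed there. Gfi1 is described with the genotype differences.

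Macrophage identity genes gave 5 of 20. Lyz2, the lysozyme whose locus drives Cre in the KO mice, had a region of 2244 bp at its 3′ end (chr10:117275743-117277986), covered over 1978 and 1884 bp in WT and 1707 and 1942 bp in KO. Lgals3, which encodes the lectin galectin-3, had 1692 bp at its start, with 990 and 941 bp in WT and 1171 and 1677 bp in KO. The genotypes overlapped at Lyz2 and did not at Lgals3. Tyrobp, an adaptor for activating receptors, had 1536 bp, Sirpa, the receptor of the CD47 signal, 1651 bp, and Csf1r, the receptor of the main macrophage growth factor, 2120 bp. The region counted for Csf1r lay nearest an end of Hmgxb3, and no strand was used on that chromosome. Strength, a percentile of fold enrichment defined below, was low at Lyz2 (4.65) and Csf1r (4.31). It was 10.0 at Sirpa, 33.4 at Lgals3 and 45.9 at Tyrobp.

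Activation genes were read against the share over all genes, 4.34%, or 7.94% of those with a shared region at an end. None of 24 inflammatory (M1) genes had a very wide region at an end, and 17 had a shared region there, a number too small to read a difference from. The widest belonged to the costimulatory receptor Cd40 (1080 bp), followed by the interferon factor Irf1 (963 bp) and the chemokine Cxcl2 (896 bp). Of 24 alternative activation (M2) genes, 2 had one (8.33%, or 11.8% of the 17 with a shared region): Stat6, the factor downstream of interleukin-4, with 2284 bp, and Socs2, a feedback inhibitor of cytokine signalling, with 1706 bp. Both also belong to the STAT and SOCS list, which gave 4 of 19 with Stat3 and Socs1 (1601 bp). Peaks covered 2235 and 1808 bp of the Stat6 region in WT and 1682 and 2221 bp in KO, and the genotypes overlapped. The Stat3 region, at the limit, was covered over 550 and 1499 bp in WT and 491 and 724 bp in KO, so a single library gave it its width.

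Tumour-associated macrophage genes gave 2 of 24, Gpnmb, a glycoprotein of lipid-laden macrophages, with 1876 bp and Nrp1, a semaphorin and growth factor coreceptor, with 2840 bp. The peaks at Nrp1 were weak, with a strength of 1.13, against 22.3 at Gpnmb. Interferon response genes gave 2 of 20, the GTPases Gbp2 (1747 bp) and Irgm1 (1792 bp). NF-kB genes gave 2 of 17, with Rel, a subunit, at 2075 bp and Bcl3, a nuclear regulator, at 1853 bp. Both had larger values in both WT libraries, by a few bp at Rel, with 1922 and 2038 bp against 1549 and 1917 bp, and more clearly at Bcl3, with 1294 and 1848 bp against 1166 and 1195 bp. At Bcl3 a further very wide region lay 4769 bp away from the first.

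Lysosome genes gave 4 of 18 and lipid genes 4 of 20. Ctsd, the aspartic protease cathepsin D, had a region of 2274 bp at its 3′ end, with 2169 and 1831 bp covered in WT and 2274 and 2189 bp in KO. Ctsb, the cysteine protease cathepsin B, had 2498 bp at the end that neighbours Fdft1, with 1615 and 1616 bp in WT and 2283 and 2466 bp in KO. Both KO values exceeded both WT values at each of these genes. The peaks at both were weak, with a strength of 1.45 at Ctsd and 1.87 at Ctsb. The other lysosome genes were Atp6v1a (1965 bp) and Mcoln1, an ion channel, whose region of 1929 bp held the start of Pnpla6 instead of its own. The lipid genes were Abcg1, a cholesterol exporter (1672 bp), Insig1, a brake on cholesterol synthesis (1501 bp), Fasn, fatty acid synthase (1674 bp), and Scd2, a desaturase (1697 bp). Cytoskeleton and adhesion genes gave 3 of 24, the actin-binding Pfn1 (2585 bp), the membrane linker Msn (1566 bp) and the integrin chain Itgb2 (2062 bp).

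Among chromatin genes, Polycomb components gave 4 of 29. They were Eed (1622 bp), the PRC2 subunit that binds the methylated histone tail, Phf19 (1592 bp), a PRC2 accessory factor, and Pcgf5 (2257 bp) and Phc1 (1632 bp), both of PRC1. The genotypes overlapped at all 4. Other chromatin regulators gave 5 of 24, among them the bromodomain gene Brd2 (1939 bp), the acetyltransferase Ep300 (1607 bp), the DNA demethylase Tet3 (1682 bp) and Ncor1 (2073 bp). Cell cycle genes gave 2 of 22, Cdk6 (3296 bp) and E2f1 (1516 bp).

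Developmental genes, the best known targets of PRC2, gave 0 of 39 for Hox genes and 1 of 40 for other regulators. Only 5 of the 39 Hox genes and 9 of the 40 other regulators had a region called in all 4 libraries at an end. Over all coding genes, 4.34% had a very wide region at an end, or 7.94% of those with a shared region there. The single developmental gene was Meis1, a homeobox factor of blood stem cells, with 1756 bp, of which 1756 and 1592 bp were covered in WT and 1242 and 1052 bp in KO. Both KO values lay below both WT values. Markers of neutrophils, B cells, T and NK cells, mast cells and their kin, osteoclasts, fibroblasts, hepatocytes and erythroid cells gave none. Each of these lists had at most 5 genes with a shared region at an end. Their counts and those of the developmental lists are too small to read a difference from all genes. The one entry among dendritic cell markers was Xcr1, whose 3′ end lay in a region of 1536 bp that held the start of Fyco1. Of the 13 histone genes listed, none had a very wide region, with H1f2 the nearest at 1484 bp. Histone genes outside the list did, found after the values were seen: a region of 1515 bp held the starts of H2bc13, H2ac13 and H3c10, 1 of 1530 bp that of H4c11 and 1 of 1694 bp that of H4f16.

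**Figure D4:**
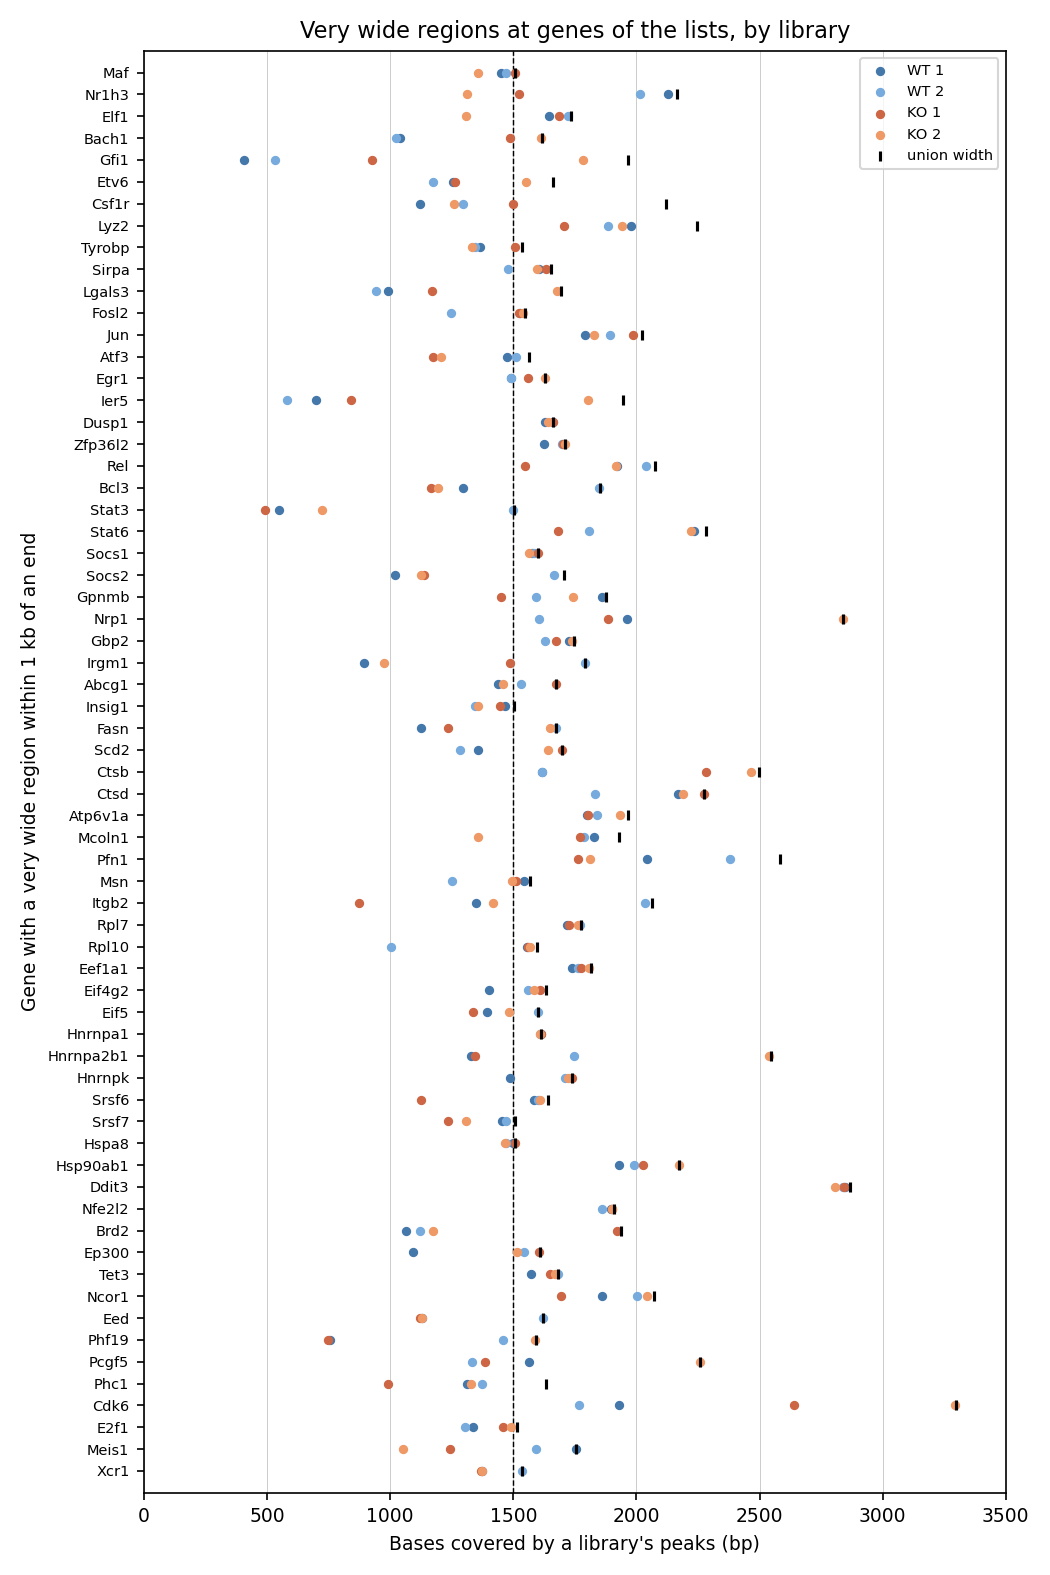
Each row is a list gene with a very wide region within 1 kb of an end, in list order, with 1 of the 66 genes not shown; circles give the bp covered by peaks of each library (blue WT, orange KO) and the black tick the union width. Circles lie close together at Ddit3 and Hnrnpa1 and far apart at Gfi1, Ier5 and Cdk6, and the dashed line marks 1500 bp.

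Union width and width within a library were not the same thing. Over the 1295 regions, peaks of WT 1 covered a median of 1457 bp, WT 2 1507 bp, KO 1 1445 bp and KO 2 1523 bp. All 4 libraries had a single unbroken peak in 748 regions. A single peak of at least 1500 bp was present in all 4 libraries at 235 regions and in none at 231, where the width came from joining peaks across libraries. The best covered library exceeded the least covered one by a median of 1.42 times, and by more than 2 times in 227 regions (17.5%). KO 2 had the largest covered width in 431 regions, WT 2 in 383, KO 1 in 244 and WT 1 in 237, so the replicate 2 libraries were the broader ones in both genotypes.

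The genotype comparison asks whether loss of Ezh2 changed the width of these regions. The median covered width was 1482 ± 35.4 bp in WT and 1484 ± 55.2 bp in KO (SD, n = 2 each), a difference of 2 bp. The two-sided exact permutation test over the 4 libraries gave p = 1, and the smallest p it can give is 0.333. The difference was smaller than the spread within either genotype. In gene-end regions KO was lower by 1.5 bp, with medians of 1499.5 bp in WT and 1498 bp in KO, and in the 498 other regions KO was higher by 17 bp (exact permutation p = 0.667). The order of the genotypes in the first comparison turned around when 1 library was left out: the difference was -15 bp without WT 1 and -23.5 bp without KO 2.

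Both KO widths exceeded both WT widths in 246 regions (19%), and the background over all 53062 shared regions was 16.2%. Both WT widths exceeded both KO widths in 199 regions (15.4%), with a background of 16.9%. The genotypes overlapped in the other 850. The counts lay near the background in both directions. Each rose when a library was left out and fewer values had to be ordered, to 445 regions with higher KO widths without WT 2 and 486 without KO 1, and to 414 with higher WT widths without WT 1 and 418 without KO 2. The background with a library left out was not computed. Among the 66 list genes, 20 had higher KO widths, 8 had higher WT widths and 38 overlapped. The share with higher KO widths thus lay above the background of 16.2%. The share with higher WT widths lay below that of 16.9%. Whether the broader coverage of KO 2 set those 20 was not tested.

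**Figure D5:**
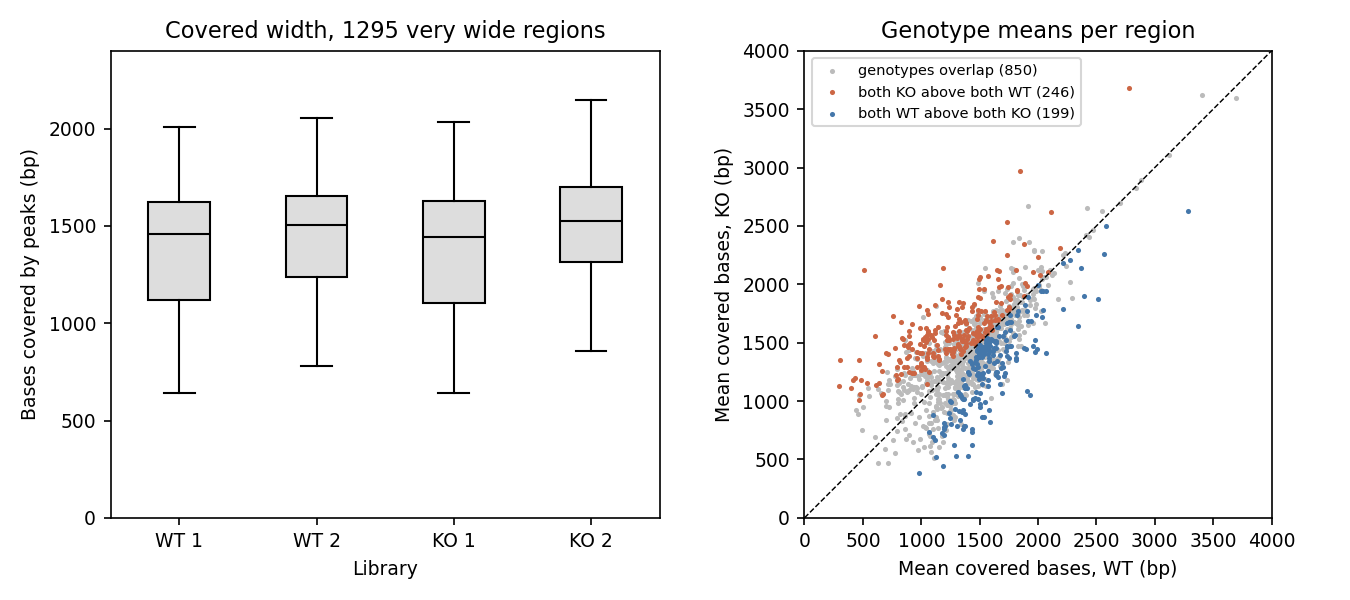
Left, covered bp per library over the 1295 very wide regions, with the median as the line, the quartiles as the box and the 5th and 95th percentiles as whiskers; the medians are 1457, 1507, 1445 and 1523 bp. Right, mean covered bp in KO against WT for each region, orange where both KO values exceed both WT values (246), blue for the reverse (199) and grey where they overlap (850); the dashed line marks equal means.

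The regions with the largest ratios of mean KO to mean WT coverage, among those without overlap, are a description of the extremes. Gfi1, a repressor that directs granulocyte against macrophage fate, had a region of 1964 bp at its start (chr5:107724500-107726463). Peaks covered 408 and 533 bp of it in WT and 924 and 1782 bp in KO, a ratio of 2.88. Its peaks were weak, with a strength of 6.97. Strength is the percentile of the authors' fold enrichment within a library's own list, taken in the library where it was lowest. Where a library had several peaks in a region, only the widest of them was read. The other 7 were regions at Tsnax (ratio 4.47), Snx16 (4.19), the start of the polarity gene Pard3b (3.78), Plekhg6 (2.84), Arap3 (2.79), the start of Rabac1 (2.75) and Mapre2 (2.59). At Tsnax the WT libraries covered 168 and 438 bp and the KO libraries 2149 and 559 bp, so 1 library gave the ratio. At Mapre2, which encodes a microtubule end-binding protein, both KO libraries were broad, with 1538 and 1580 bp against 808 and 398 bp.

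In the other direction, the start of Ltbp1, a carrier of latent TGF-beta, was covered over 1174 and 1624 bp in WT and 528 and 536 bp in KO, a WT over KO ratio of 2.63. A region inside Gramd1b, a cholesterol transporter, was covered over 1281 and 1096 bp in WT and 529 and 361 bp in KO, a ratio of 2.67. At both, each WT library was more than 500 bp above each KO library. The remaining regions were those at Abcg2 (2.55), Atp8a2 (2.45), Birc6 (2.30), Nuak1 (2.17), Kdm2a (2.06) and the start of Serbp1 (1.95). At Abcg2, a drug efflux pump, WT covered 444 and 1512 bp and KO 409 and 358 bp, so that ratio rested on 1 WT library. With 2 libraries per genotype no single region can pass a test.

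The 20 widest regions were of several kinds. The widest lay inside Ccdc91 and measured 4942 bp (chr6:147549767-147554708), 73896 bp from the nearest gene end. No library covered it whole, with 2570 and 2983 bp in WT and 3060 and 4303 bp in KO in 2 or 3 peaks each. A region of 3832 bp near Trappc6b was an unbroken peak in every library, with 3572 and 3811 bp in WT and 3620 and 3572 bp in KO. A region of 3373 bp inside Kdm6b, which encodes a demethylase of the histone mark placed by Ezh2, was covered over 2947 and 3292 bp in WT and 2895 and 3320 bp in KO. These last regions differed little between genotypes. The peaks inside Kdm6b were weak, with a strength of 0.636, against 27.2 near Trappc6b. The Cdk6 region, at the start of a cell cycle kinase that also acts in blood progenitors, measured 3296 bp. Peaks covered 1928 and 1766 bp of it in WT and 2638 and 3295 bp in KO. Both KO values exceeded both WT values. Its strength of 1.74 came from WT 1, and the percentiles of the other libraries lay between 35.2 and 41.1. The region of 3445 bp at Arhgdib, a GDP-dissociation inhibitor of blood cells, was broad in 1 library, with 1704 and 1963 bp in WT and 1562 and 3239 bp in KO.

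Enrichment rose and then fell with width. Over all shared regions, the median strength rose from 33.3 under 200 bp to 63.8 at 800 to 1000 bp and was 60.5 and 52.3 in the next classes up to the limit. The median strength of the very wide regions was 41.2, against 49.5 for the narrower shared regions and 57.5 for those of 1000 to under 1500 bp. It fell with width inside the set, from 47.3 at 1500 to 1750 bp to 38.3, 26.0 and 12.9 in the next classes, the last being the 42 regions of 2500 bp or more. In all, 159 very wide regions (12.3%) had a strength under 10 and 448 (34.6%) a strength over 50. Gene-end regions had a median of 46.4 and the others 31.5. Fold enrichment is, by the layout of these lists, an average over the whole peak.

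The strongest regions all lay at gene ends, 7 of the 8 at a coding start in the promoter table. They were at Ccni, which encodes cyclin I (strength 92.5), Cacybp, a calcyclin-binding protein (90.3), Ift57 (89.9), Atp8a1, a lipid flippase (89.1), Arrdc4 (88.2), B230307C23Rik (86.0), Rfxap, a subunit of the regulator of MHC class II genes (83.5), and the pair of Fbxo36 and Trip12 (83.3). The region at Ccni was 1684 bp wide, with 1670 and 817 bp covered in WT and 1016 and 910 bp in KO. The weakest lay near Sfi1 (0.052), Gm52481 (0.0534), Mid1 (0.0563), at the pair of Brd2 and H2-DMa (0.0617) and at Gm21083 (0.0852). At Mid1 the covered widths were 1335 and 461 bp in WT and 1293 and 121 bp in KO, so replicates differed more than genotypes.

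Several weak regions clustered at gene families with predicted members. Of 1182 regions within 50 kb of a gene end, 48 had a nearest gene named Gm, AY or Speer, names given to predicted genes and to a testis-expressed family present in many similar copies. Their median strength was 5.39, and 27 of the 48 were under 10, against a median of 43.4 and 105 of 1134 for the others. The gene with the most very wide regions was Speer4c, with 4 between chr5:15673154 and chr5:15714611, whose strengths ran from 0.217 to 9.28. Gm17019, Gm21119 and Speer4d had 3 each. Reads from near-identical copies cannot be placed with certainty, and the sources used here do not say how the authors treated them. Without the 159 regions of strength under 10, an alternative chosen after the data were seen, 1136 regions were left and 64.3% lay at a gene end.

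Otherwise regions were spread out. The 1182 assigned regions belonged to 1141 genes, of which 1106 had 1 region, 30 had 2 and 5 had 3 or more. Among the last was Bcor, a corepressor that works with a Polycomb complex, with 3 regions of 1878 to 2589 bp and strengths of 22.4 to 23.7. Among the 30 genes with 2 regions were Bach1, Bach2, Fli1, an ETS factor of blood cells, and the chemokine receptor gene Ccr1. Ago2, the core of the silencing complex, Insig1 and Zfp36l2 also had 2. The same group held Rpia, M1ap, Btbd11, Prickle1, Rere and Sfi1, so the genes named first are a selection. The median distance between neighbouring very wide regions was 922917.5 bp, and 11 pairs lay within 10 kb. Per chromosome, very wide regions made up between 1.76% (chromosome 13) and 3.06% (chromosome 5) of the shared regions, leaving out Y with 2 of 45.

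Some regions, 43 in all, held a lncRNA start and no coding start from the promoter table. That table lacks part of the coding genes, so a coding start can be missed. The regions at Hsp90ab1 and Socs2, for example, held a lncRNA start and an annotated end of that coding gene. One, of 2420 bp at chr14:61680840-61683259, held the start of Dleu2, the host of a pair of tumour-suppressive miRNAs, and was covered over 2369 and 1678 bp in WT and 2415 and 1873 bp in KO. Another, of 1754 bp at chr2:128428260-128430013, held the start of Morrbid, a lncRNA that controls the lifespan of short-lived myeloid cells. Peaks covered 1727 and 1718 bp of it in WT and 1719 and 1741 bp in KO, so all libraries had nearly the same width, whereas Dleu2 was narrower in both replicate 2 libraries.

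The RefSeq miRNA table placed 10 hairpins inside very wide regions and 3 more within 1 kb. The region with 2 hairpins close by measured 2638 bp at chr14:115040308-115042945, 726 bp before Mir17 and 906 bp before Mir18, the first genes of a cluster known to drive proliferation. Its nearest coding gene was Gpc5. Their 5p mature sequences are shown because these are the best studied products near a very wide region, with the seed, bases 2 to 8, in capitals.
mmu-miR-17-5p: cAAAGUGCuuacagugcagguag
mmu-miR-18a-5p: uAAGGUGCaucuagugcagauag

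The seeds AAAGUGC and AAGGUGC differ, so these miRNAs fall in separate seed families. No seed was shared among the 18 mature sequences of the 13 hairpins. Other hairpins included Mir1945, in a region nearest Gspt1, a translation termination factor, and Mir2861, in a region nearest Cdk9, the kinase that releases paused polymerase.

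Of the 113 very wide regions more than 50 kb from any coding gene end, 46 lay inside a gene and 67 outside. Beside Ccdc91, the widest lay inside Akap6 (3453 bp, 225238 bp from the nearest end). The next lay outside genes, nearest Snrpn (3137 bp, 212310 bp), Cops8 (3004 bp, 154309 bp) and Klf6 (2681 bp, 56603 bp). The region near Klf6, an early response factor of macrophages, was a stable one, with 2524 and 2575 bp covered in WT and 2680 and 2569 bp in KO. The region inside Akap6 was covered over 2544 and 1290 bp in WT and 2828 and 2517 bp in KO. The WT replicates thus differed from each other more than the genotypes did. The median strength of the 113 regions was 27.1.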

How the data were processed

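The data are ATAC-seq peak lists from 4 libraries, grouped by their titles. Per the submitters' processing notes, the authors used fastp, Bowtie2 and MACS2 with mm10. Versions and read filters are not stated. Each deposited list belongs to 1 library and was not pooled. It gives for each peak a score, a fold ratio over local background, and −log10 p-values and −log10 q-values, as the authors deposited them. The lists hold no counts, so depth and its precision are unknown. Each list skips between 261 and 322 of its peak numbers.

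Peaks were merged at an overlap of 1 bp, and regions called in all 4 lists with a union width of at least 1500 bp were kept. Covered width is the bp of a region under a library's peaks. Fold was used only as a percentile within its list. Gene ends came from RefSeq GRCm38.p6 (21887 coding genes, no strand), and starts and promoters from its promoter table (17492 coding genes, 79.9%). Of 601 list entries, 596 matched. Genotypes were compared by an exact permutation test over library medians, with exact Clopper-Pearson intervals at 95% for shares. Named were the 20 widest regions, the 8 strongest and 5 weakest, the 8 most different in each direction, those nearest the limit, genes with most regions, list genes, the 5 widest over 50 kb from a gene, and starts of the widest. Members and lists were chosen with earlier results of these data known. The merge was tested on simulated peaks. Scripts used Python 3.11.15, pandas 2.3.3 and scipy 1.17.1. Alternatives were the width limit, coverage needed for a call, weak peaks, single-peak width, gene-end distance, scaling, a replicate block and leaving out each library. Values of a few list genes are not reported here.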

Additional observations from a re-analysis of the deposited data

How the results depend on the processing

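With 2 libraries per genotype and no counts, no region could be tested, and unknown depth limits every width. The width limit set the numbers. At 1000 bp there were 6696 regions, 56.2% at a gene end, 1126 with higher KO and 1049 with higher WT widths, and 193 list genes. At 2000 bp there were 215, 56.7%, 45, 39 and 17. Requiring a single peak of 1500 bp in every library gave 235, 68.5%, 42, 32 and 18. These rules choose among the same shared regions, whose background was 16.2% with higher KO and 16.9% with higher WT widths. The gene-end share was 66% when each library had to cover at least 50% of the region, 67.9% without the weakest 25% of each list, 64.6% with a distance of 2 kb, 55.8% by midpoint and 64.3% without regions of strength under 10, the last 2 added after seeing the data. The genotype difference in median width, 2 bp, was -2 bp without the weakest 25%, -0.75 bp without regions of strength under 10, 40.5 bp at the 2000 bp limit (exact permutation p = 1), 12 bp with the single-peak rule (p = 0.667), 19.1 bp with scaled widths and 7.5 bp with the widest peak. Leaving out each library in turn gave differences between -23.5 and 38.5 bp, 1058 to 1172 regions, 312 to 486 with higher KO widths, 285 to 418 with higher WT widths, shares between 61.8 and 62.3%, and 56 to 64 list genes. With 3 libraries fewer widths have to be ordered, which raises the counts with higher KO and higher WT widths by construction. The background with 3 libraries was not computed, so those counts cannot be read against it. The cause of the other changes was not tested. With a replicate block the difference was 2 bp (exact sign-flip p = 1), from -12 bp for replicate 1 and 16 bp for replicate 2. The replicates share only a number: the correlation of same-numbered deviations across regions was 0.0232. The other alternative counts stayed within 1.5 times the main count, and the other gene-end shares inside its interval. Of the counts for single lists, 228 stayed within 1.5 times and 72 did not.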
